A study of Homo sapiens with 8 samples.

Results

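The 10 genes described here encode subunits that set the PBAF and ncBAF forms of the SWI/SNF chromatin remodeller apart, together with accessory subunits. They are ARID2, PBRM1, BRD7 and PHF10 (PBAF), BRD9 and BICRA (ncBAF), and DPF1, DPF2, BCL7A and BCL7B (accessory). They were taken by name, 10 of 20037 protein-coding genes, with every peak inside the gene or within 10 kb of it. The assay was ChIP-seq with a Flag antibody, in which DNA bound to a tagged protein is recovered and sequenced, and the cells were Huh7, a line from a human hepatocellular carcinoma. In all cells the ARID1A gene was knocked out and Flag-tagged ARID1A was overexpressed from a lentivirus. The groups were the V2084D mutant with knockdown of STUB1, the V2084D mutant, and the wild-type protein (WT), with 2 ChIP libraries each. STUB1 is a ubiquitin ligase that works with chaperones. The 2 input libraries came from WT cells and were not analysed here as lists. The labels leave unsaid whether the knockout was a single clone, whether a group's libraries are separate cultures, and what the hairpin tags in the peak names stand for (sh183 in the knockdown lists, shEV in the V2084D and WT lists). Peak lists hold no expression values, so the line was not checked against marker genes.

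SWI/SNF complexes use ATP to move or evict nucleosomes. ARID1A is the large scaffold subunit of the canonical form, cBAF, and is absent from PBAF and ncBAF, which are built around other scaffold proteins. ARID2 takes the place of ARID1A in PBAF, where PBRM1, BRD7 and PHF10 join it. BRD9 and BICRA define ncBAF, which lacks an ARID subunit. DPF2 is a zinc finger subunit of cBAF, DPF1 is its relative best known from neurons, and BCL7A and BCL7B are small subunits found in several forms of the complex. The comparison here is therefore of ARID1A on the genes of the complexes that do not contain it and of subunits that act beside it.

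The lists held 8904 and 6663 peaks for V2084D with STUB1 knockdown, 6000 and 12384 for V2084D, and 27587 and 26515 for WT. The depth of sequencing behind them is unknown. A list also grows with depth and with the efficiency of the precipitation, so a missing peak was not read as absence of the protein. The fold enrichment of a peak is the authors' own value, and the place of a peak is its rank by q in its own list, given as a percentage from the top. Lists of different lengths make these places a description and not a measure of change.

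All 10 genes had a peak inside or within 10 kb in both WT lists, against 66.7% of all protein-coding genes. Each had a WT peak within 1 kb of a start, or for ARID2 of its low-coordinate end. For this narrower count no share over all genes is given. In the mutant lists, which were shorter, the peaks at these genes were fewer. Per 1000 peaks of the list they averaged 1.20 with STUB1 knockdown, 0.818 in V2084D and 1.15 in WT. At BRD7 and BRD9 no mutant list had a peak. Of all protein-coding genes, 12.8% likewise had a peak in both WT lists and in no mutant list. BCL7A alone of the 10 had a peak in all 6 lists, as did 16.4% of all protein-coding genes. BCL7B carried the strongest WT peaks of the set. Altogether the 6 lists held 96 peaks at these genes, which joined into 41 sites when overlaps of at least 1 bp were counted. Of these sites, 20 had a peak in both WT lists and 16 were seen in 1 WT list alone. Sites with a peak in both WT lists numbered 8 with no mutant peak, 10 with a peak in at least 1 STUB1 knockdown list and 8 with a peak in at least 1 V2084D list.

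**Figure D1:**
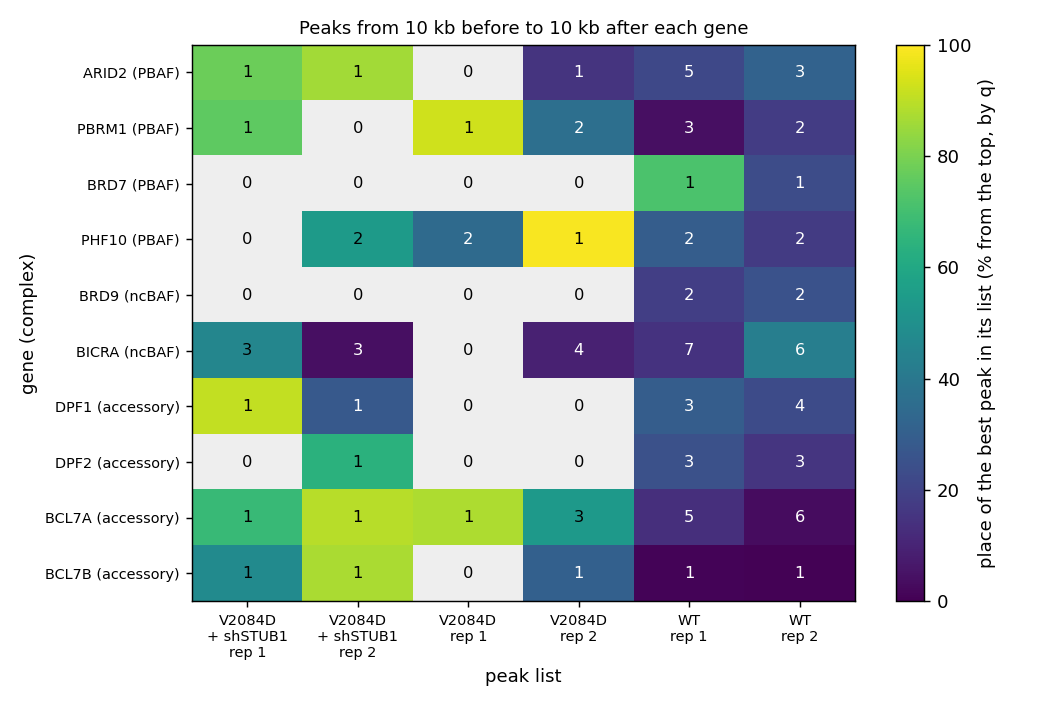
Number of peaks at each gene in each list (digits) and place of the best peak in its list (colour, 0% is the top of the list, grey is no peak). Columns are the 6 lists, rows the 10 genes with their complex. All cells of the WT columns are filled, the BRD7 and BRD9 rows are grey in the 4 mutant columns, and BCL7B is at 1.02% and 0.718% in WT.

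The sequences before the start sites are given for BCL7B, which had the strongest WT peaks, BCL7A, which had peaks in all lists, PHF10, which had start-site peaks in V2084D replicate 1 and WT, and BRD7, which had peaks in WT alone. Each run is the 250 bases before the annotated start (RefSeq, GRCh38.p14), 5′ to 3′ on the strand of the gene. They lie at chr7:73557691-73557940 (minus strand), chr12:122021634-122021883 (plus strand), chr6:169724501-169724750 (minus strand) and chr16:50368989-50369238 (minus strand), in the order given. Capitals mark matches, on both strands, to any of the motifs searched.
BCL7B: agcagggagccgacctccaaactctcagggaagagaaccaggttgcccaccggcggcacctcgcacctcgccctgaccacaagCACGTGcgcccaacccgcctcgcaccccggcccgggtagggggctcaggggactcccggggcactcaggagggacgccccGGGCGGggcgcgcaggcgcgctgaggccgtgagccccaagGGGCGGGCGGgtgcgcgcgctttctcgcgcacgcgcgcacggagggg
BCL7A: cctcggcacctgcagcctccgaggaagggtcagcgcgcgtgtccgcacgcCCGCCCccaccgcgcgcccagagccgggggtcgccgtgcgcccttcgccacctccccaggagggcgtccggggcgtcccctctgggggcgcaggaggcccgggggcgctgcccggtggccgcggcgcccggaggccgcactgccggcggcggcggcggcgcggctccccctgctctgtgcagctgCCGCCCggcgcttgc
PHF10: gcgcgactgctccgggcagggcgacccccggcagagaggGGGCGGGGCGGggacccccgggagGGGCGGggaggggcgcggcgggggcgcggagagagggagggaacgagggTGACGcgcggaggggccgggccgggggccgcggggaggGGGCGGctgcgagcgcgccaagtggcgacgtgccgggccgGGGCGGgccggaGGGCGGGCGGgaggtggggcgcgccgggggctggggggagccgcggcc
BRD7: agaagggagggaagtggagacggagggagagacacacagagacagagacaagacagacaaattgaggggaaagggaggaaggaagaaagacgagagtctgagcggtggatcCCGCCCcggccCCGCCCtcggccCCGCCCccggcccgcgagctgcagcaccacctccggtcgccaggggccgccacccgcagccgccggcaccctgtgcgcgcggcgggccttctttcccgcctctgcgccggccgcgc

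The RefSeq promoter table matched 9 of the 10 genes, with 13 windows in all, and had no entry for ARID2. The part of each window that was searched is the 250 bases before an annotated start. The 50 bases after it were left out, so no match or absence below covers them. The 9 motifs searched on both strands were AP-1 TGANTCA, the CRE core TGACG, TEAD GGAATG, ETS CCGGAA, NF-Y CCAAT, SP/KLF GGGCGG, the NRF1 core TGCGCA, YY1 AAGATGG and the E-box CACGTG, and none of them holds another. SP/KLF letters were in 11 of the 13 windows and in 53.7% of 22199 windows of the same length at protein-coding genes. In the printed stretches they occurred 3 times at BCL7B, 2 times at BCL7A, 7 times at PHF10 and 3 times at BRD7, matches that overlap each other included. An E-box was found in the BCL7B stretch and in 1 PBRM1 window, against 7.37% of all windows. CRE core letters were in 4 windows (24.2% of all), NF-Y letters in 4 (32.7%), ETS letters in 3 (18.0%) and NRF1 core letters in 2 (8.32%). The AP-1, TEAD and YY1 letters were in no member window, against 5.36%, 10.5% and 3.36% of all windows. The GC content of the 13 windows ran from 63.6 to 86.4% with a median of 75.6%, and the median over all windows was 62.0%. Such matches describe the letters and not binding.

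At least 1 peak was listed for 6 and 7 of the 10 genes in V2084D with STUB1 knockdown, for 3 and 6 in V2084D, and for 10 and 10 in WT. The same counts over all protein-coding genes were 40.0% and 31.4% with STUB1 knockdown, 28.8% and 46.0% in V2084D, and 71.9% and 71.2% in WT. V2084D replicate 1, with 3 of 10, was thus near the background of its list, and each other list was above its own. In V2084D replicate 2 and knockdown replicate 1 the excess was of few genes. In a set of 10, the excess in any of the lists is not read as a difference. The members have a median length of 34611 bp against 24115 bp for all protein-coding genes, and a longer gene has a larger window. The 19 other SWI/SNF subunit genes had a peak at 12 and 11 with STUB1 knockdown, at 13 and 15 in V2084D, and at 18 and 18 in WT.

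**Figure D2:**
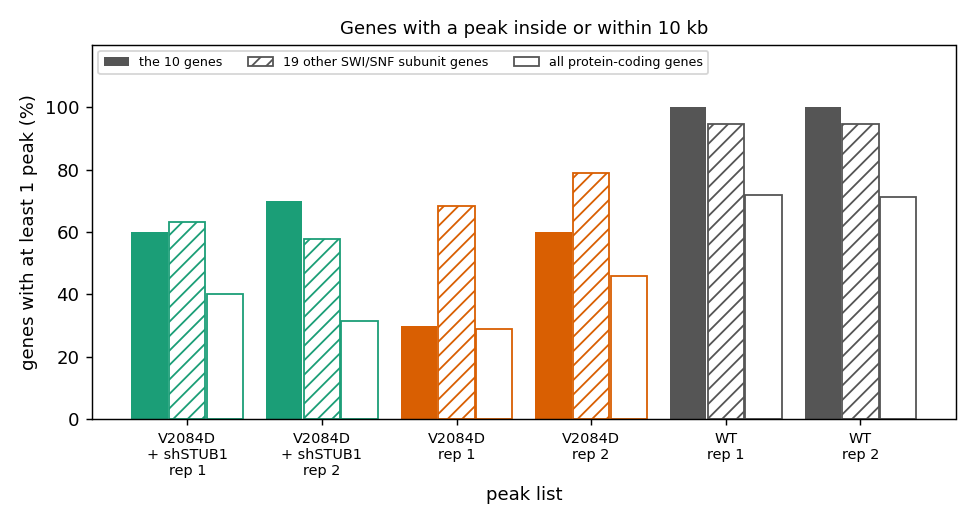
Percentage of genes with at least 1 peak inside or within 10 kb, per list, for the 10 genes (filled bars), 19 other SWI/SNF subunit genes (hatched) and all protein-coding genes (open). The filled bars stand for 6 and 7 genes with STUB1 knockdown, 3 and 6 in V2084D, and 10 and 10 in WT.

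The comparison of V2084D with WT asks how the mutation alters where ARID1A is found. At these genes V2084D peaks were listed for fewer members than WT peaks, in both libraries. On average 4.5 ± 2.12 members had a peak in V2084D and 10 ± 0 in WT (SD, n = 2 each). The difference was -5.50 genes, from -7.00 to -4.00 over the pairs of libraries, and the two-sided exact permutation p was 0.333, the smallest that 2 libraries against 2 can give (adjusted p = 0.5 over the 3 pairs of groups). The direction held in each pair of libraries, but this test cannot pass 0.05 with 2 libraries against 2. With all lists reduced to the 6000 peaks of lowest p, the length of the shortest list, the difference was -1.50. In the full lists, 28.8% and 46.0% of all protein-coding genes had a peak in V2084D, and 71.9% and 71.2% in WT. A lower count in V2084D is therefore not particular to these genes. Set against list length, V2084D had 0.818 ± 0.214 peaks at these genes per 1000 peaks of the list and WT 1.15 ± 0.0202 (SD, n = 2 each), a difference of -0.328 that ran from -0.493 to -0.162 over the pairs (exact permutation p = 0.333, adjusted p = 1.00).

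A peak in both V2084D lists was found at PBRM1, PHF10 and BCL7A, 3 of 10 members against 24.2% of all protein-coding genes. Among genes with a peak in both WT lists the share was 35.7%. BRD7, BRD9, DPF1 and DPF2 had a peak in both WT lists and in neither V2084D list, 4 of 10 against 19.1% of all genes and 28.7% of the genes with a peak in both WT lists. Both counts are near their background. In the lists of 6000 peaks, PBRM1 was the member with a peak in both V2084D lists (1 of 10 against 18.2% of all genes), and PBRM1, BCL7A and BCL7B had a peak in both WT lists (3 of 10 against 23.3%). None of the 10 then had WT peaks in both lists and no V2084D peak, against 4.15% of all genes. At a −log10 q of at least 5, 0 members had a peak in both V2084D lists against 4.43% of all genes, and 8 in both WT lists against 37.0%. Under that threshold 7 members had WT peaks and no V2084D peak, against 23.1% of all genes and 62.5% of the genes with a peak in both WT lists. The count of members with WT peaks and no V2084D peak thus ran from 0 to 7 with the setting, and in each setting it was read beside the share over all genes.

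STUB1 knockdown was set against V2084D alone to ask whether the ligase bears on the mutant's occupancy. A peak was listed for 6.50 ± 0.707 members with knockdown and for 4.5 ± 2.12 in V2084D (SD, n = 2 each). The difference of 2 genes ran from 0 to 4 over the pairs of libraries and was within the spread between V2084D libraries (exact permutation p = 0.667, adjusted p = 0.667). Per 1000 peaks of the list the values were 1.20 ± 0.426 with knockdown and 0.818 ± 0.214 in V2084D, a difference of 0.382 that ran from -0.0705 to 0.834 over the pairs (exact permutation p = 0.667, adjusted p = 1.00). At a −log10 q of at least 5 the difference in members turned to -0.500, with a fold of at least 5 it was 0, and without V2084D replicate 1 it was 0.5.

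ARID2, BICRA, DPF1, BCL7A and BCL7B had a peak in both knockdown lists, 5 of 10 against 25.4% of all protein-coding genes and 37.6% of genes with a peak in both WT lists. DPF1 had a peak in both knockdown lists and in neither V2084D list, a pattern of 2.11% of the genes with a peak in both WT lists. The 2 knockdown peaks at DPF1 lay at different sites, as given below. In the lists of 6000 peaks BICRA and BCL7B had a peak in both knockdown lists (2 of 10 against 20.1% of all genes), and with −log10 q of at least 5 no member did (6.59% of all genes). The reverse, V2084D peaks in both replicates without a knockdown peak, was seen at no member, and at 2.92% of such genes.

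Set against WT, knockdown cells had a peak at 6.50 ± 0.707 members and WT cells at 10 ± 0 (SD, n = 2 each). The difference was -3.50, between -4.00 and -3.00 over the pairs of libraries (exact permutation p = 0.333, adjusted p = 0.5). Of all protein-coding genes, 40.0% and 31.4% had a peak with knockdown, and 71.9% and 71.2% in WT. The lower count with knockdown is therefore not read as particular to these genes. Per 1000 peaks of the list, members had 1.20 ± 0.426 peaks with knockdown and 1.15 ± 0.0202 in WT (SD, n = 2 each), a difference of 0.0539 that ran from -0.261 to 0.369 over the pairs (exact permutation p = 1.00, adjusted p = 1.00). It was smaller than the spread between the knockdown libraries, and without knockdown replicate 2 it was -0.247.

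Most of the main sites lay at starts of transcription. The main site of a gene is the site held by the most lists and, among those, the one of best median rank. At 8 of the 10 genes a summit of the main site was within 1 kb of an annotated start, or for ARID2 of the low-coordinate end of the gene. The exceptions were PHF10, whose main site was beyond the far end of the gene, and DPF1, whose main site was over 4 kb before the start. Peaks with a summit within 1 kb of a start made up 6 of 8 and 4 of 10 of the peaks at members with STUB1 knockdown, 3 of 4 and 6 of 12 in V2084D, and 14 of 32 and 13 of 30 in WT. WT lists had such a peak at all 10 genes. No share of start-site peaks over whole lists or over all genes is given here, so this placement is not read as particular to the 10 genes.

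**Figure D3:**
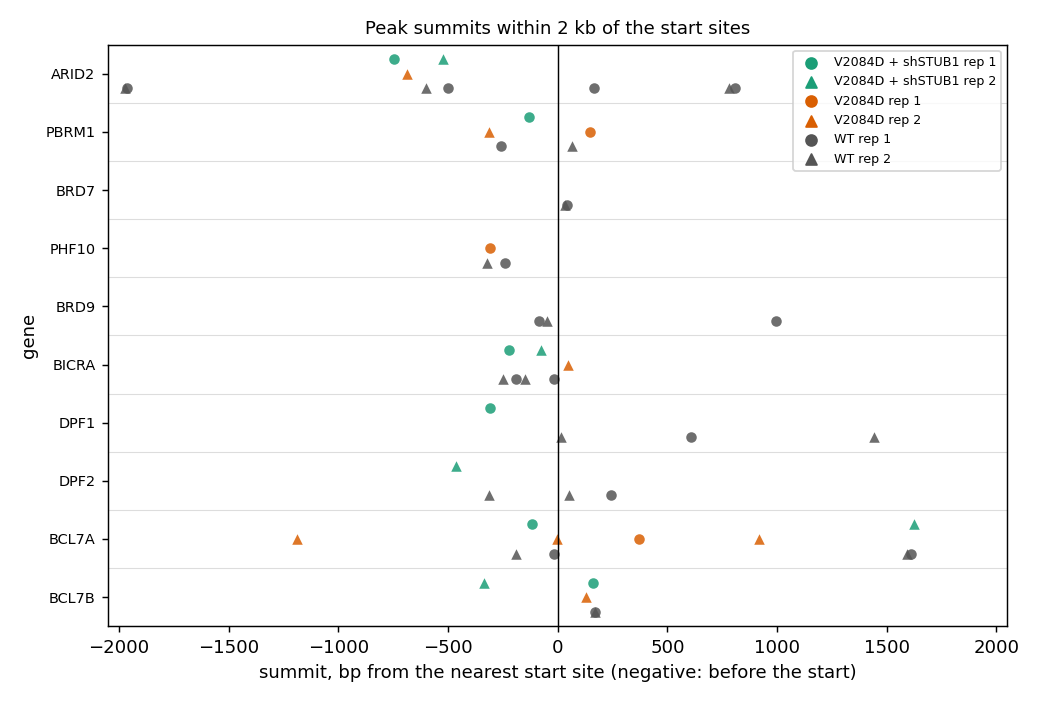
Summits of all peaks within 2 kb of a start site, in bp from the nearest annotated start of each gene (for ARID2 from its low-coordinate end), with negative values before the start. Colours are groups, circles replicate 1 and triangles replicate 2. WT summits are present for all 10 genes, and at BRD7 and BRD9 the WT points stand alone.

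Among the PBAF genes, PBRM1 encodes polybromo, the bromodomain protein of PBAF that is often mutated in kidney cancer. PBRM1 lies on chromosome 3 from 52545367 to 52685913 (hg38). Its main site ran from 52685313 to 52686546 and had folds of 3.52 in STUB1 knockdown replicate 1, 3.08 and 4.66 in V2084D, and 8.81 and 4.95 in WT, with no peak in STUB1 knockdown replicate 2. These peaks stood at 75% with knockdown, at 92.9% and 36.4% in V2084D, and at 4.05% and 17.8% of the list in WT. Both WT places were nearer the top than the 3 mutant places. Of the 8 members with a peak in both WT lists and in at least 1 mutant list, 5 had best peaks placed this way (PBRM1, PHF10, DPF2, BCL7A and BCL7B), against 50.1% of 10801 such genes, so the order is near the background. PBRM1 and GNL3, which encodes a nucleolar GTPase, have starts 7 bp apart on opposite strands, so the peak cannot be given to PBRM1 rather than GNL3. The summits spread over 496 bp of this stretch, with those of V2084D replicate 2 and WT replicate 1 on the GNL3 side, 315 and 260 bp before the PBRM1 start. A weaker site beyond the far end of PBRM1, with folds of 2.89 in V2084D replicate 2 and of 3.51 and 3.87 in WT, lay 38 bp from an end of UQCC5.

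ARID2, on chromosome 12 from 45729706 to 45908037, encodes the scaffold subunit of PBAF. The gene had 1 peak in each STUB1 knockdown list, 0 and 1 in V2084D, and 5 and 3 in WT. All mutant peaks fell on the same site, from 45728637 to 45729574, with folds of 3.26 and 3.62 with knockdown, 4.62 in V2084D replicate 2, and 5.64 and 4.52 in WT. Their places were 77.5% and 86.2% with knockdown, 14.9% in V2084D replicate 2, and 22.9% and 42.7% in WT. The V2084D peak was thus the highest in its list of the 5, and the knockdown peaks the lowest. The other 4 sites were seen in WT lists alone, among them sites whose WT summits lay 1966 and 1972 bp outside the gene and 809 and 779 bp inside it. All 11 peaks of ARID2 lay within 4 kb of its low-coordinate end, although the gene is the longest of the 10 at 178332 bp.

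PHF10, on chromosome 6 from 169703902 to 169724500, encodes the PBAF subunit with paired PHD fingers. At its start, the site from 169724196 to 169725111 had a fold of 5.50 in V2084D replicate 1, and of 6.07 and 6.79 in WT, with no peak in V2084D replicate 2 or with STUB1 knockdown. The summits lay 309 bp before the start in V2084D replicate 1, and 242 and 321 bp before it in WT, and DYNLT2 had an end 270 bp from the nearest of them. The V2084D peak stood at 34.7% of its list, and the WT peaks at 29.5% and 17.3%. The site past the far end of PHF10, from 169701582 to 169702840, was held by 5 lists. Its best folds were 4.65 in knockdown replicate 2, 3.86 and 2.73 in V2084D, and 4.88 and 5.06 in WT. Summits of this site fell inside WDR27 and C6orf120, the closest of them 75 and 82 bp from an end of these genes. The peak in V2084D replicate 2 stood at 99.0% of its list, near the foot, and was the single peak by which that list counted PHF10.

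BRD7, on chromosome 16 from 50315957 to 50368988, encodes a further bromodomain subunit of PBAF. No mutant list had a peak inside BRD7 or within 10 kb of it. The WT lists had 1 peak each, with folds of 4.08 and 6.06, whose summits lay 41 and 34 bp inside the start, 7 bp apart, just downstream of the stretch printed above. They stood at 71.8% and 23.2% of their lists. BRD7 thus had the fewest peaks of the set, all at 1 site.

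Of the ncBAF genes, BRD9 encodes the bromodomain subunit that defines this form of the complex. BRD9, on chromosome 5 from 863741 to 892801, had no peak in any mutant list, and 2 peaks in each WT list. The main site, from 891365 to 893085, had best folds of 5.96 and 4.85 in WT, at 18.7% and 25.1% of the lists. Its summits lay 85 and 49 bp before the downstream of the 2 annotated starts, and a further WT replicate 1 summit lay 996 bp inside. The other WT replicate 2 peak counted for BRD9 lay past its far end, from 855639 to 856147, with a fold of 4.85, and its summit was in the body of ZDHHC11. TRIP13, a gene of meiotic and mitotic checkpoint control, starts on the other strand 83 bp from the upstream start of BRD9, and a BRD9 summit came within 249 bp of it. The absence of mutant peaks holds for this shared promoter as a whole. BRD7 and BRD9 made up 2 of 10 members with a peak in both WT lists and in no mutant list, a pattern of 12.8% of all genes and 19.2% of genes with a peak in both WT lists. None of the 18 other subunit genes with a peak in both WT lists showed it.

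BICRA, on chromosome 19 from 47608196 to 47703277, encodes the scaffold-like subunit of ncBAF. It had the most peaks of the set, 3 and 3 with STUB1 knockdown, 0 and 4 in V2084D, and 7 and 6 in WT. The main site, from 47608538 to 47609346, had folds of 4.47 and 7.07 with knockdown, 3.55 in V2084D replicate 2, and 6.31 and 4.39 in WT, and V2084D replicate 1 had no peak. These peaks stood at 45.8% and 4.18% with knockdown, at 69.5% in V2084D replicate 2, and at 14.7% and 45.7% in WT. With rank 279, the peak of knockdown replicate 2 was the highest-placed mutant peak at any member. The summits lay 222 and 76 bp before the downstream start with knockdown, 45 bp inside it in V2084D replicate 2, and 191 and 147 bp before it in WT. At the upstream start, from 47607618 to 47608450, WT lists alone had a peak, with folds of 3.25 and 2.81 near the foot of the lists at 85.4% and 96.3%. Some 8 to 9 kb before the gene, the site from 47598496 to 47600017 had best folds of 4.89 in knockdown replicate 1, and of 5.81 and 4.88 in WT.

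Among the accessory subunit genes, BCL7B, on chromosome 7 from 73536356 to 73557690, had 1 site, from 73556792 to 73558219. Its folds were 4.56 and 3.59 with STUB1 knockdown, 4.55 in V2084D replicate 2, and 10.7 and 10.8 in WT, with no peak in V2084D replicate 1. The ranks were 4273 and 5809 with knockdown, 3789 in V2084D replicate 2, and 281 and 191 in WT. This put the peaks at 48.0% and 87.2% of the knockdown lists, at 30.6% of V2084D replicate 2, and at 1.02% and 0.718% of the WT lists. Both WT places were again nearer the top than the 3 mutant places, the order found at 50.1% of such genes. The peaks were 343 and 367 bp wide with knockdown, 490 bp in V2084D replicate 2, and 1253 and 1353 bp in WT. WT summits lay 168 and 171 bp inside the upstream start, between the 2 annotated starts, the summits of knockdown replicate 1 and V2084D replicate 2 lay 159 and 130 bp inside, and that of knockdown replicate 2 lay 337 bp before it.

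The place of BCL7B in the mutant lists was compared with that of other genes as strong in WT, a comparison chosen after its values were seen. Of 339 protein-coding genes whose best peak was in the top 2% of both WT lists, 318 (93.8%) had a peak in both knockdown lists, BCL7B included. A peak in knockdown replicate 1 was listed for 334 of the 339, and in replicate 2 for 322. The upper quartiles of their places were 16.4% and 19.6%. In both V2084D lists 314 of the 339 (92.6%) had a peak, and BCL7B was not among them. In V2084D replicate 2, 330 of the 339 had a peak, and their best peaks had a median place of 5.10% and an upper quartile of 13%. BCL7B, at 48.0% and 87.2% with knockdown and 30.6% in V2084D replicate 2, was past the upper quartile in each of these lists. The gene whose 6 places were closest to those of BCL7B was HMGN1, a nucleosome-binding protein gene on chromosome 21, with a mean absolute difference of 2.63 percentage points over the 6 lists, a missing peak being set at 100%. HMGN1 stood at 46.3% and 81.4% with knockdown, had no peak in V2084D replicate 1 and stood at 25.7% in replicate 2, and was at 0.841% and 3.92% in WT. VAMP2 and LRWD1 followed with 4.78 and 5.07 percentage points.

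BCL7A, on chromosome 12 from 122021884 to 122062044, was the member with a peak in all 6 lists, 1 of 10 against 16.4% of all protein-coding genes. It had 1 and 1 peaks with STUB1 knockdown, 1 and 3 in V2084D, and 5 and 6 in WT. The main site, from 122021090 to 122023840, had best folds of 4.84 and 3.39 with knockdown, 4.0 and 4.46 in V2084D, and 7.58 and 9.70 in WT. The places were 67.5% and 89.4% with knockdown, 87.6% and 54.2% in V2084D, and 13.3% and 3.32% in WT. Here too both WT places were nearer the top than the mutant places, the order that 50.1% of such genes showed. The site joined summits at the start with others inside the gene. At the start itself, knockdown replicate 1 had a summit 118 bp before it, V2084D replicate 2 had its best summit 4 bp before it, and WT had summits 19 and 188 bp before it, in the printed stretch. V2084D replicate 1 peaked 370 bp inside the gene. A further summit lay 1627 bp inside in knockdown replicate 2, and 1613 and 1595 bp inside in WT. Knockdown replicate 2 thus had no peak at the start, and with summits within 1 kb of a gene end alone, BCL7A had a peak in 5 lists and no member had one in all 6. Past the far end of BCL7A, sites from 122063308 to 122063957 and from 122064232 to 122065657 were held by both WT lists and by no mutant list.

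DPF2, on chromosome 11 from 65333852 to 65354262, had 0 and 1 peaks with STUB1 knockdown, none in V2084D, and 3 and 3 in WT. The site at its start, from 65333259 to 65334470, had a fold of 4.17 in knockdown replicate 2 and best folds of 5.69 and 4.05 in WT. The summits spread over 706 bp, and the knockdown summit, 465 bp before the start, lay outside those of WT. At the far end, the site from 65354050 to 65355124 had folds of 4.64 and 5.96 in WT and no mutant peak, and lay 24 bp from an end of TIGD3.

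DPF1, on chromosome 19 from 38211006 to 38229695, had 1 and 1 peaks with STUB1 knockdown, none in V2084D, and 3 and 4 in WT. Its main site, from 38233923 to 38234520, had a fold of 5.46 in knockdown replicate 2, and of 6.07 and 6.31 in WT. The WT summits lay 4445 and 4440 bp before the start, 5 bp apart, and the knockdown summit 4671 bp before it. No other protein-coding gene had an end within 1 kb of them. The peak of knockdown replicate 1 was elsewhere, 308 bp before the start, with a fold of 3.43 at 90.9% of its list and no WT peak overlapping it. It began at 38229771, and a WT replicate 2 peak with a fold of 3.83 and a summit 17 bp inside the start ended at 38229752. WT peaks inside DPF1 were each seen in 1 list alone, with folds of 3.54 to 4.71.

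**Figure D4:**
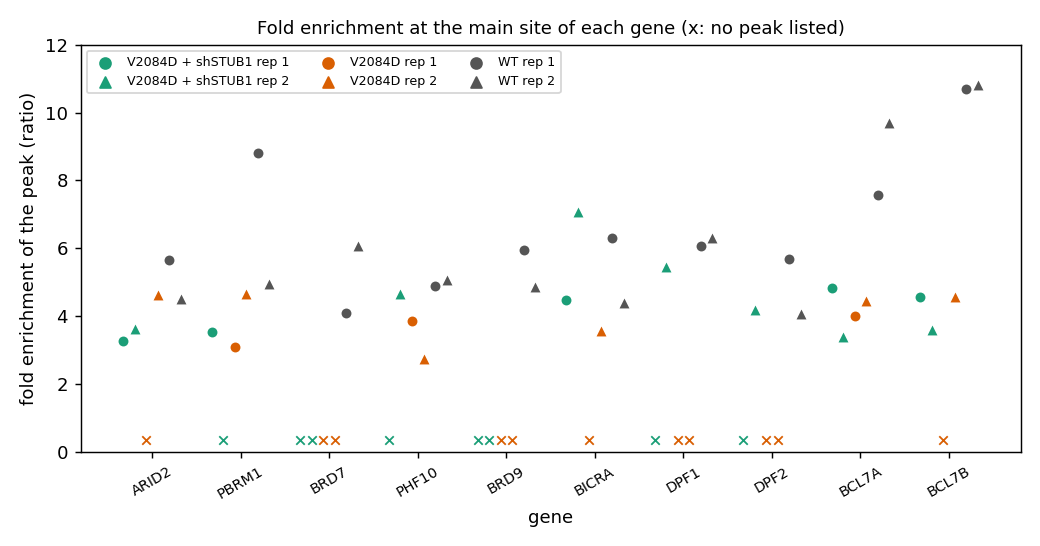
Fold enrichment (ratio, the authors' values) of the best peak at the main site of each gene in each list, with a cross where no peak was listed. Colours are groups, circles replicate 1 and triangles replicate 2. BCL7B has 4.56, 3.59 and 4.55 in the mutant lists that hold it and 10.7 and 10.8 in WT. BICRA with STUB1 knockdown, at 7.07, is the highest mutant point.

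Over the main sites of the 10 genes, the knockdown lists held 12 peaks of 20 possible, the V2084D lists 9 and the WT lists 20. The WT lists were the longest, and a main site was chosen as the one held by the most lists. No such count over all genes is given here, so these counts are not read as particular to the 10 genes. BCL7A had its main-site peak in all 4 mutant lists, ARID2, PBRM1, PHF10, BICRA and BCL7B in 3, DPF1 and DPF2 in 1, and BRD7 and BRD9 in none. Overlap with the joined site did not mean the same position. Peaks were then set against the best peak of WT replicate 1, which itself is left out of these counts. An overlap of at least 50% of both peaks was found at 3 and 2 of the 10 genes with knockdown, at 1 and 2 in V2084D, and at 9 in WT replicate 2. This rule also depends on width, since a peak under 50% of the width of the WT replicate 1 peak cannot pass it. At BCL7B the knockdown replicate 1 peak was 343 bp wide against 1253 bp, with summits 159 and 168 bp inside the start. Failing the rule is therefore not read as a different position. A summit within 200 bp was found at 3 and 3 genes with knockdown, at 1 and 4 in V2084D, and at 8 in WT replicate 2.

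The other SWI/SNF subunit genes, a list of 19 that includes the knocked-out and reintroduced ARID1A, had a peak in both knockdown lists at 7, in both V2084D lists at 11 and in both WT lists at 18. ACTL6B, the actin-like subunit known from neurons, was the exception in WT, and ACTL6A and SS18 had WT peaks and no V2084D peak. SMARCB1, the core subunit lost in rhabdoid tumours, had best folds of 8.45 and 6.19 with STUB1 knockdown, 6.0 and 7.17 in V2084D, and 10.6 and 11.2 in WT. SMARCC2, SMARCD2, SS18L1, BCL7C, BICRAL and ARID1A also had a peak in all 6 lists, 7 of 19 with SMARCB1. The same was true of 1 of the 10 members and of 16.4% of all protein-coding genes, so the members were near the background. Peaks at ARID1A may hold reads of the introduced copy, which was not tested. No test was made between the lists of genes.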

How the data were processed

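The deposited data were 1 narrowPeak list for each of 6 Flag ChIP-seq libraries, and the peak names carry the library, so peaks were called per library. The submitters' processing notes name Trimmomatic, Picard and SAMtools, the aligner Bowtie2, the peak caller MACS2, deepTools and bedtools, and build hg38. For these steps, versions, settings and controls were not given in the sources used here. The deposited fold enrichment (a ratio), −log10 p and −log10 q of each peak were used as the authors gave them, within 1 list at a time, and so was the deposited summit offset. Depth is unknown.

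Genes were placed with RefSeq (GRCh38.p14, the assembly of hg38). A gene had a peak when 1 overlapped, by at least 1 bp, the stretch from 10000 bp before to 10000 bp after it. Overlapping peaks of the 6 lists were joined into sites. Ranks used −log10 q, with ties at their mean rank. Group means over libraries were compared by a two-sided exact permutation test with Benjamini-Hochberg adjustment over the 3 pairs of groups. P-values measure the spread between libraries, which may be technical. Member genes, the list of other subunits and the motifs were chosen with earlier results of these data known. All members are named, with neighbours whose end lies within 1000 bp of a summit or whose body holds it. The main site of a gene is the site held by the most lists, and then the one of best median rank. Likeness to BCL7B, the member with the best median rank, was measured over all protein-coding genes. Counting in windows was tested on simulated peaks, where all 938 genes had the right count. Python 3.11.15, numpy 2.4.6 and pandas 2.3.3 were used.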

Additional observations from a re-analysis of the deposited data

How the results depend on the processing

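The alternatives were peaks of −log10 q or of fold of at least 5, lists of equal length, summits in place of overlaps, windows of 1000 bp, summits at gene ends, each library left out, and pairing. V2084D minus WT kept its negative sign in all of them, from -8.00 to -1.50 for members with a peak, and from -0.983 at −log10 q of at least 5 to -0.0255 with summits at gene ends for peaks per 1000. STUB1 knockdown minus V2084D in members turned to -0.500 at −log10 q of at least 5. The knockdown minus WT difference per 1000 peaks turned to -0.743 at that threshold, and ran from -0.247 to 0.355 with a knockdown library left out. Members with a peak in both knockdown lists were 0 at either threshold, 2 with equal lists and 3 with summits at gene ends. Those in both V2084D lists were 0 at either threshold and 1 with equal lists, and ran from 3 to 6 with a library left out. Those in both WT lists were 5 at a fold of at least 5 and 3 with equal lists. Members in all 6 lists were 0 in these 4 settings and from 1 to 4 with a library left out. Members with WT and without V2084D peaks were 7 at −log10 q of at least 5, 0 with equal lists, and from 4 to 7 with a library left out. Peaks at the main sites were 5 and 6 for knockdown and 3 and 5 for V2084D when 50% overlap, or summits within 200 bp, of the WT replicate 1 peak were required. The causes were not tested, beyond the fewer peaks or libraries that these settings hold by construction.

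With same-numbered libraries paired (replicate block), the differences stayed -5.50, 2 and -3.50 members for V2084D against WT, knockdown against V2084D and knockdown against WT, and the exact permutation p was 0.5 in each, the smallest that 2 pairs allow. The numbers alone do not pair the libraries, and over 20037 genes the deviations of same-numbered libraries had correlations of 0.00, -0.07 and -0.00.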

Other observations

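BICRA had 2 sites without a WT peak that were held by a list of each mutant group, both of which were found after the values were seen. Inside the gene, from 47648509 to 47648825 on chromosome 19, the folds were 5.79 in STUB1 knockdown replicate 2 and 5.29 in V2084D replicate 2, at 24.4% and 23.9% of the lists. A WT replicate 2 peak with a fold of 3.97 ended at 47648378, short of this site. Past the far end of the gene, from 47707032 to 47707621, the folds were 5.57 in knockdown replicate 2 and 6.59 in V2084D replicate 2, at 21.5% and 9.0%. No annotated gene lay within 1 kb of that site, where BICRA ended at 47703277. Of the 12384 peaks of V2084D replicate 2, 2643 (21.3%) overlapped no WT peak, and of these 96 overlapped a peak of knockdown replicate 1 alone, 66 one of replicate 2 alone and 26 a peak of both.

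Relatives of the accessory genes were in the list of other subunits. BCL7C, the relative of BCL7A and BCL7B, had 4 and 3 peaks with STUB1 knockdown, 2 and 4 in V2084D, and 5 and 5 in WT, and its best peaks stood at 16.1% and 34.9% of the lists with knockdown, 12.5% and 14.1% in V2084D, and 7.80% and 6.95% in WT. BICRAL, the relative of BICRA, had a peak in all 6 lists, with best folds of 4.89 and 3.49 with knockdown, 4.56 and 4.73 in V2084D, and 6.48 and 7.09 in WT. DPF3, the relative of DPF1 and DPF2, had a peak in knockdown replicate 2 (fold 3.26) and V2084D replicate 2 (fold 2.39), both near the foot of the list, and folds of 5.63 and 4.08 in WT.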
